A study of Mus musculus with 2 samples.

Results

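The genes described here encode the glycine receptor and its scaffold: the 4 alpha subunit genes Glra1, Glra2, Glra3 and Glra4, the beta subunit gene Glrb, and Gphn, which encodes gephyrin. They are 6 of the 43346 Ensembl genes listed in each library, chosen by name and matched on the gene symbol, and all 6 were found. RNA came from the hindbrain of healthy B6NCrl mouse embryos at day 16.5, the part of the brain that forms the medulla, pons and cerebellum. There was 1 group of 2 biological replicates, each a pool of male and female tissue. The pool of replicate 2 held tissue of 37 embryos; for replicate 1 no number is given. The design has no second condition, and permuting 2 libraries cannot give a p below 0.5, so no p is given and every comparison is a description of these 2 pools.

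Glycine receptors are pentameric chloride channels that carry fast inhibition in the brainstem and spinal cord. Alpha subunits bind glycine and can form channels alone, while the beta subunit binds gephyrin and so anchors mixed receptors at synapses. In rodents the Glra2 form is known as the fetal one, and Glra1 takes over as brainstem and spinal circuits mature. Gephyrin also anchors many GABA-A receptors and, in all tissues, carries out the last steps of molybdenum cofactor synthesis.

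Coding segments in which annotated transcripts of these genes differ are shown first, because the isoform results below refer to them. They are read from GENCODE M21 transcripts on GRCm38, 5′ to 3′, and lie within the coding sequence. Capitals mark the bases that 1 transcript has and its counterpart lacks, and lower case marks the 12 bases on either side. The first segment is an exon of 108 bases, chr12:78493950-78494057 on the plus strand, that is known as the C3 cassette of Gphn and is present in ENSMUST00000110388, called the C3 form here. The second joins exons of 57 and 42 bases, at chr12:78522898-78522954 and chr12:78532657-78532698 on the plus strand, that are present in the other Gphn transcript, ENSMUST00000052472, called the 99-base form here. The next is the start of the last exon of the Glra1 transcript ENSMUST00000075603, chr11:55515104-55515127 on the minus strand, which adds 24 bases to the large intracellular loop and is absent from the main transcript, ENSMUST00000102716. The last is the 4 bases, in capitals, at the start of an exon of the main Glrb transcript ENSMUST00000029654, chr3:80879729-80879732 on the minus strand, that the transcript ENSMUST00000135043 lacks. In the deposited files the 2 Glra1 transcripts are 2037 and 2390 bases long, and the 2 Glrb transcripts 3029 and 2979 bases. Both pairs thus also differ outside the printed bases, and their shares need not rest on these alone.
Gphn C3 form: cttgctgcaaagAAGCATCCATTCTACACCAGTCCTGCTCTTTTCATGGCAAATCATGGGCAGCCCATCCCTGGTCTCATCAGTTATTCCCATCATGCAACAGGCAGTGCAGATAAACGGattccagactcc
Gphn 99-base form: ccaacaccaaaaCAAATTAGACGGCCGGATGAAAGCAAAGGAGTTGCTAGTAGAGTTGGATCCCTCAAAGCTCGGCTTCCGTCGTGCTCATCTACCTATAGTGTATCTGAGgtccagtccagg
Glra1 insertion form: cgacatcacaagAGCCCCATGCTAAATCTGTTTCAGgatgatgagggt
Glrb main form: cttgtgcccatcTCAGcagtcacccgag

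The 5 receptor genes share an exon plan that the choice of genes did not use. In all 5, 1 fully coding exon has 68 bases and another 83 bases, and the 4 alpha genes also share exons of 224 and 215 bases. Coding sequences of the alpha genes were 74.1% to 76.5% identical to each other over aligned bases, and 62.0% to 64.0% identical to Glrb. The 68-base exon lies in the extracellular part of the subunit, and in Glra2 it is the exon known to exist in alternative forms whose choice Nova proteins control. Across the 5 genes 37 of its 68 positions were identical, and across the 4 alpha genes 46 were. The exon is printed below with the shared 37 positions in capitals. Its places are chr11:55566209-55566276 (minus strand) for Glra1, chrX:165289599-165289666 (minus) for Glra2, chr8:56005117-56005184 (plus) for Glra3, chrX:136775486-136775553 (minus) for Glra4 and chr3:80878009-80878076 (minus) for Glrb.
Glra1: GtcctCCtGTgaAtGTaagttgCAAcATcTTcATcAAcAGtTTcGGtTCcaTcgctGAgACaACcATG
Glra2: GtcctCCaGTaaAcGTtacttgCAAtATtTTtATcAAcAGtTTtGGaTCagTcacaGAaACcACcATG
Glra3: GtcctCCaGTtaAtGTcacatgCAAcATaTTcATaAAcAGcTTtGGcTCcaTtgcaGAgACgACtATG
Glra4: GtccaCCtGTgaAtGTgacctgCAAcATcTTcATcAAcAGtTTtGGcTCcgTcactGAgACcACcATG
Glrb: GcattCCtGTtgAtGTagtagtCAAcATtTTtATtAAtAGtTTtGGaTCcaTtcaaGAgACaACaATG

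**Figure D1:**
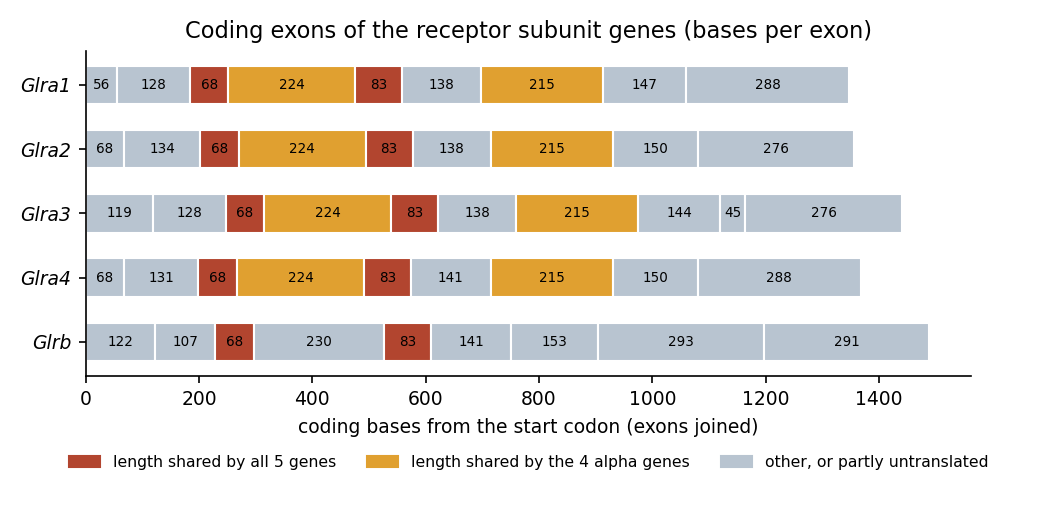
Coding bases of each exon, joined from the start codon, for the main coding transcript of the 5 receptor subunit genes, without the stop codon. Exons of 68 and 83 bases recur in all 5 genes, and exons of 224 and 215 bases in the 4 alpha genes.

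Despite this likeness, no stretch of 31 bases was shared between transcripts of the 6 genes. The deposited posterior SD of the count was 0 for every gene in both libraries, except Glra1 in replicate 2, where it was 0.31 reads. The deposited model thus carried almost no uncertainty in assigning reads to these genes. The antisense gene Gm12236, on the strand opposite Glra1, holds 111 of the 2440 stretches of 31 bases in Glra1 transcripts and had 0 counts in both libraries. Genes outside the 6 also hold 180 of the 4710 stretches of Glrb and 117 of the 3776 of Gphn. BC065397, opposite Glra4, had 152 counts in replicate 2 and 174 in replicate 1. The sources do not give whether counting used strand.

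The libraries held 42017008 expected counts in replicate 2 and 42467811 in replicate 1. Levels below are TPM, a relative abundance corrected for length, with the interval deposited for each value, whose confidence level the file headers do not state. Pan-neuronal markers summed to 3541 TPM in replicate 2 and 3333 TPM in replicate 1. All 8 genes listed as hindbrain and anterior Hox markers, 7 of them Hox genes, reached 1 TPM in both, summing to 264 and 242 TPM. Most of that sum came from Hoxb5, at 111.27 and 100.35 TPM, and Hoxa5, at 88.82 and 72.11 TPM. Other tissues differed more between the pools: 12 forebrain markers summed to 34.4 TPM in replicate 2 and 62.2 TPM in replicate 1, and 7 skeletal muscle markers to 13.7 and 329.6 TPM. Neurod6 and Lhx2 held most of the forebrain sum in each library, and the median forebrain marker had 0.05 TPM in replicate 2 and 1.73 TPM in replicate 1. The forebrain genes Emx1 and Nkx2-1 were among those with 0 counts in replicate 2. The 7 spinal Hox genes summed to 1.83 and 7.34 TPM, with Hoxc10 at 0 in both, and the 6 retinal genes to 20.1 and 24.9 TPM. The spinal list holds only genes of the Hox9 and Hox10 groups, so spinal tissue outside their range was not assessed.

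Among the alpha subunit genes Glra2 (ENSMUSG00000018589.8, X chromosome, 165129017 to 165327393) was the abundant one. It had 48.58 TPM in replicate 2 and 48.82 TPM in replicate 1, from 3812 and 3739 counts, and the deposited intervals ran from 46.0 to 49.0 and from 46.2 to 49.2 TPM. The libraries thus overlapped almost fully for Glra2, which lay above 83.4% of protein-coding genes.

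Glra1 (ENSMUSG00000000263.11, chromosome 11, 55514238 to 55608198), which encodes the main adult subunit and whose loss of function causes startle disease in mice and people, was low. It had 2.05 TPM in replicate 2, with an interval of 1.72 to 2.45, and 2.36 TPM in replicate 1, with an interval of 1.99 to 2.79. Glra3 (ENSMUSG00000038257.8, chromosome 8, 55940460 to 56130070), whose subunit is best known from the superficial dorsal horn of the spinal cord, stood beside it. It had 2.42 TPM in replicate 2, with an interval of 1.97 to 2.84, and 2.03 TPM in replicate 1, with an interval of 1.61 to 2.42. These 2 genes could not be ordered: Glra3 was the higher one in replicate 2 and Glra1 in replicate 1, with overlapping intervals in both. Glra1 rested on 121 counts in replicate 2 and 134 in replicate 1, and Glra3 on 118 and 93.

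Glra4 (ENSMUSG00000018595.6, X chromosome, 136757674 to 136780141), which is not functional in humans, had 2 counts in each library. An exact 95% Poisson interval for 2 counts is 0.242 to 7.22 and covers counting error only. Its level was 0.04 TPM in replicate 2 and 0.06 TPM in replicate 1, with intervals up to 0.186 and 0.202 TPM. Glra4 was the only one of the 6 genes below 1 TPM, the minimum used for detection, so 5 of 6 were detected in both libraries, against 63.5% of 21474 protein-coding genes.

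Within the alpha subunits Glra2 made up 91.5% of the summed TPM in replicate 2 and 91.6% in replicate 1. Glra1 made up 3.86% and 4.43%, Glra3 4.56% and 3.81%, and Glra4 0.0753% and 0.113%. The composition of the alpha pool was therefore close between the pools, and so was its size, at 53.09 TPM in replicate 2 and 53.27 TPM in replicate 1. Glra2 was 20.1-fold above Glra3 in replicate 2 and 24.0-fold in replicate 1, and 23.7-fold and 20.7-fold above Glra1.

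Glrb (ENSMUSG00000028020.12, chromosome 3, 80843599 to 80913660) encodes the single beta subunit, mutated in the spastic mouse. It had 61.25 TPM in replicate 2, with an interval of 58.2 to 62.4, and 45.00 TPM in replicate 1, with an interval of 42.7 to 46.3, from 4391 and 3196 counts. The intervals do not overlap, and Glrb had the largest gap of the 6 genes between the pools on the TPM scale. Its mean was 53.1 ± 11.5 TPM (SD, n = 2), above 84.6% of protein-coding genes. The order of Glrb and Glra2 changed with the library. Glrb was 1.26-fold above Glra2 in replicate 2, with intervals apart, and 0.922-fold in replicate 1, with intervals that overlap. Against the sum of the alpha genes, Glrb stood at a ratio of 1.15 in replicate 2 and 0.845 in replicate 1, a mean of 0.999 ± 0.218 (SD, n = 2). These are ratios of RNA levels and not of subunits in receptors.

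Gphn (ENSMUSG00000047454.7, chromosome 12, 78226379 to 78684772) was next in the order of mean level. It had 39.49 TPM in replicate 2, from 3244 counts, and 42.26 TPM in replicate 1, from 3388 counts. Its intervals, 37.3 to 39.95 and 39.96 to 42.7 TPM, nearly touched without overlapping. Glra2 exceeded Gphn in both libraries, by 1.23-fold and 1.16-fold, with intervals apart each time. Glrb exceeded Gphn by 1.55-fold in replicate 2, with intervals apart, and by 1.06-fold in replicate 1, where they overlap.

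Of the 15 pairs of these genes, 12 had intervals apart, in the same order, in both libraries. The exceptions were Glrb with Glra2, Glrb with Gphn, and Glra1 with Glra3. The genes thus form 3 tiers, with Glrb, Glra2 and Gphn between 39.49 and 61.25 TPM, Glra1 and Glra3 between 2.03 and 2.42 TPM, and Glra4 near 0.

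**Figure D2:**
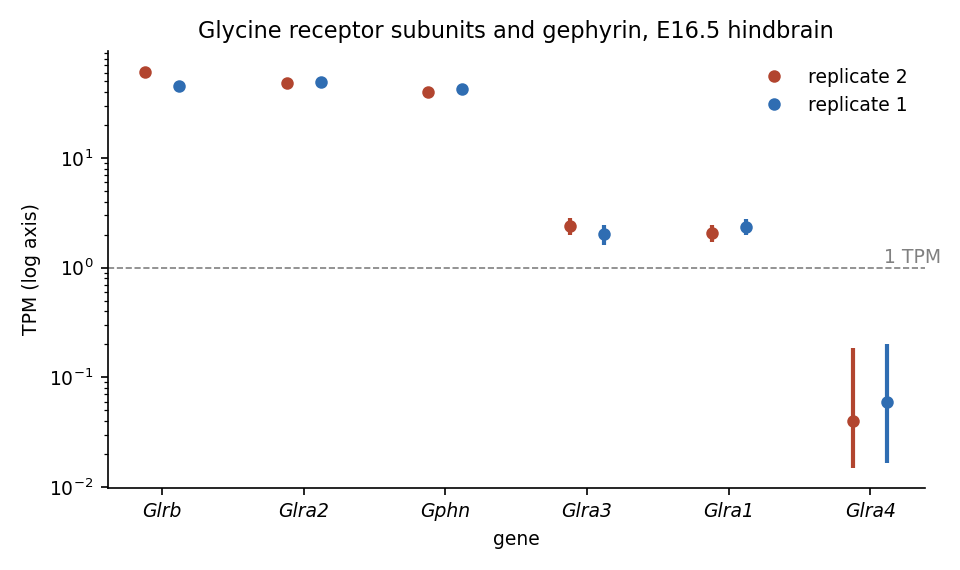
Level of each gene in TPM on a log axis, by replicate. Points are deposited values and vertical lines the deposited intervals. Glrb, at 61.25 TPM in replicate 2 and 45.00 TPM in replicate 1, shows the widest gap between libraries among the 3 abundant genes, while Glra2 is nearly level.

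Between the pools, expected counts scaled with TMM gave Glrb a log2 ratio of replicate 2 over replicate 1 of 0.47, a 1.39-fold difference with a 95% counting interval of 1.33 to 1.45. Glra3 had a ratio of 0.36, with an interval from -0.05 to 0.77 that includes 0. Glra2 had 0.04 (-0.02 to 0.11), Gphn -0.05 (-0.12 to 0.02) and Glra1 -0.13 (-0.50 to 0.23). So only the interval of Glrb lay clear of 0, and no fold is given for Glra4, where both libraries are under 3 counts.

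None of the 5 genes that reached a mean of 1 TPM was over 2-fold apart, where 4.50% of the 16037 genes at that mean were. Non-overlapping deposited intervals were found for 2 of the 5, Glrb higher in replicate 2 and Gphn higher in replicate 1. Of the 16037 genes, 9.88% were apart in the first direction and 19.6% in the second, so a gap such as that of Gphn was common. The median ratio of the 5 genes was 0.04, against -0.003 for all 16037.

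The difference in Glrb was larger than in most genes of like abundance. Among 4960 protein-coding genes with a mean of 20 to 100 TPM the median absolute log2 ratio was 0.10, and 2.12% had an absolute ratio at least as large as Glrb, or 0.464% a ratio at least as high in the same direction. The share with an absolute ratio at least as large was 74.1% for Gphn and 77.0% for Glra2. Among 2732 genes with a mean of 1 to 5 TPM the same was true of 32.3% for Glra3 and 69.9% for Glra1.

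Scaling by spike-in totals shifts the median of all genes by 0.45 toward replicate 2, and all 5 ratios with it: Glrb became 0.92, Glra3 0.80, Glra2 0.49, Gphn 0.40 and Glra1 0.32. The direction given for Gphn and Glra1 therefore holds relative to other genes only. By the ratio of deposited TPM Glra2 was at -0.01 and Glrb at 0.44. The markers of other tissues given above moved between the pools as well, and their part in the difference in Glrb was not tested. In RNA from whole tissue, fewer cells of a type cannot be told apart from less RNA per cell.

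**Figure D3:**
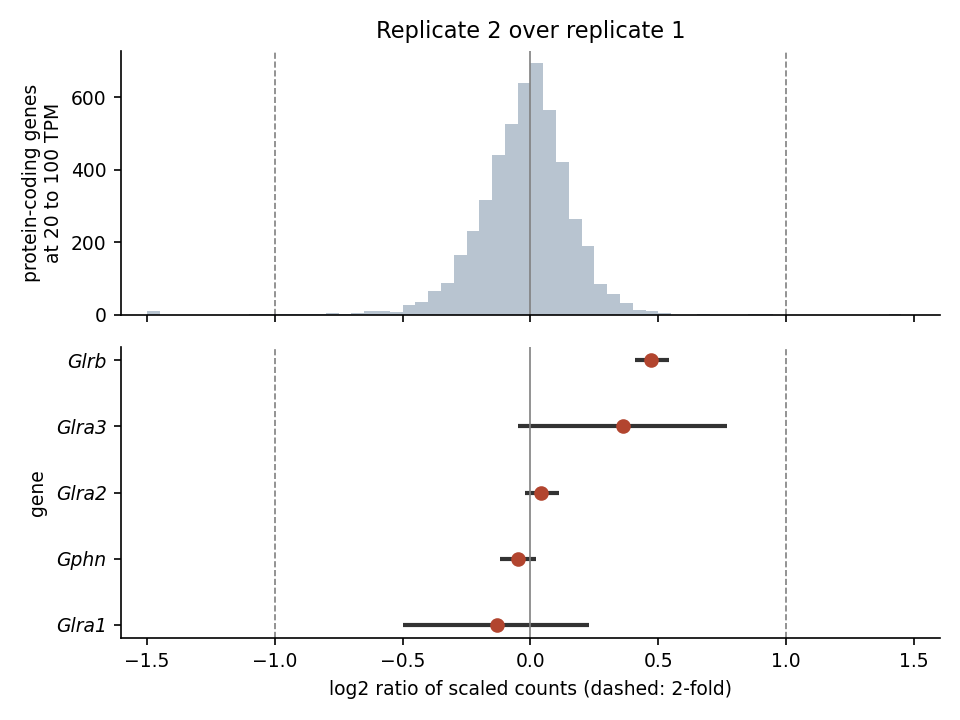
Log2 ratio of scaled counts, replicate 2 over replicate 1. The upper panel counts protein-coding genes at 20 to 100 TPM, with genes beyond the axis in the end bins, and the lower panel gives 5 genes as points with 95% counting intervals as lines. Glrb, at 0.47, lies in the right edge of the distribution and Glra2, at 0.04, near its middle.

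Both quantified models of Gphn were given a large share of the gene's TPM. The authors' annotation held 2 coding transcripts of Gphn, which differ by the cassettes printed above. The 99-base form held 58.25% of the gene's TPM in replicate 2 and 55.64% in replicate 1, and the C3 form held 41.75% and 44.36%. Both insertions keep the reading frame and lie in the stretch that links the G and E domains of gephyrin. In replicate 2 the interval of the 99-base form, 19.8 to 24.9 TPM, lay above that of the C3 form, 13.7 to 18.8 TPM. In replicate 1, at 20.4 to 25.5 and 16.0 to 20.8 TPM, they overlapped. The C3 cassette is known to be skipped in neurons under control of Nova proteins and kept in other cells. Transcripts with both insertions or with neither were not among the 2 quantified, so the percentages split all Gphn reads between these models and are not a count of each exon's use.

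Most Glrb RNA came from the full coding transcript, and its share hardly moved while the gene's level did. The main form held 88.70% in replicate 2 and 89.48% in replicate 1, which is 54.33 and 40.27 TPM, with intervals of 47.9 to 56.1 and 35.9 to 41.7 TPM that do not overlap. Transcripts annotated as subject to nonsense-mediated decay, a pathway that degrades messages with an early stop, summed to 6.09 and 4.74 TPM, or 9.94% and 10.5% of the gene. One of them, ENSMUST00000135043, lacks the 4 bases printed above, a number that is not a multiple of 3. It had 3.25 TPM in replicate 2 and 2.96 TPM in replicate 1, with wide intervals of 0.719 to 8.21 and 0.973 to 5.79 TPM. The other, ENSMUST00000132330, had 2.84 and 1.78 TPM. The short coding transcript ENSMUST00000107743 had 0.77 TPM in replicate 2 and 0 TPM in replicate 1.

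Glra1, Glra2 and Glra3 each had 1 main model. The Glra1 transcript that lacks the 24-base insertion held all Glra1 TPM in replicate 2 and 92.01% in replicate 1, where the insertion form held 7.99%, from 9.17 expected counts. The interval of the insertion form reached 0.208 TPM in replicate 2 and ran from 0.0308 to 0.50 TPM in replicate 1, so the libraries did not differ beyond these intervals. The coding transcript of Glra3 held 92.75% in replicate 2 and 96.71% in replicate 1, the rest being a noncoding one. The coding transcript of Glra3 is 1867 bases long in the deposited files, against 6508 bases in GENCODE M21, and the effect of this on its count was not tested. Glra2 had a single annotated transcript, so the alternative forms of its 68-base exon could not be told apart. The 2 counts of Glra4 were given to its coding transcript in replicate 2 and to a retained-intron transcript in replicate 1.

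**Figure D4:**
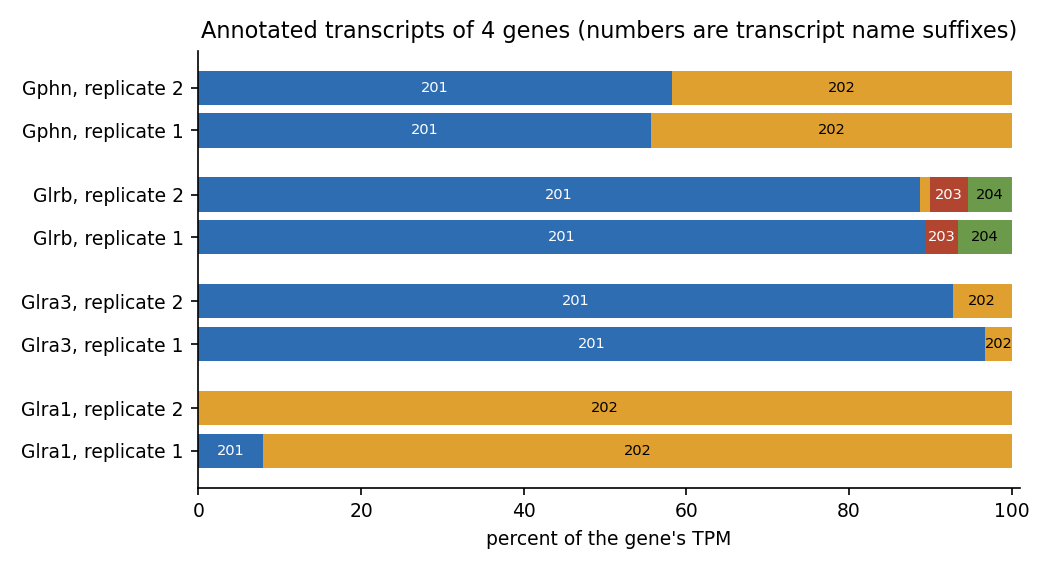
Percent of each gene's TPM given to each annotated transcript, by replicate, with the suffix of the transcript name inside segments of at least 3%. Gphn is split between the 99-base form on the left, 58.25% in replicate 2 and 55.64% in replicate 1, and the C3 form to its right, while Glrb, Glra3 and Glra1 each have 1 transcript above 88%.

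The surrounding genes of inhibitory transmission were taken from 6 lists with 52 genes, of which 48 reached 1 TPM in both libraries. None of these 48 was over 2-fold apart between the pools, where 4.50% of the 16037 genes with a mean of at least 1 TPM were. Intervals were apart in 11 genes higher in replicate 2 and in 10 higher in replicate 1, or 21 of 48 in all. Of the 16037 genes 29.5% were apart in either direction. Among the 4960 protein-coding genes with a mean of 20 to 100 TPM the share was 34.8%, though not all 48 genes lie in that range.

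All 10 genes of glycine supply were detected, with a median of 28.4 TPM. The highest were Dld at 113 ± 5.17 and Gcsh at 93.8 ± 7.70 TPM, both of the glycine cleavage system that breaks glycine down, the glial transporter gene Slc6a9 at 49.6 ± 5.27 and the serine-glycine enzyme gene Shmt2 at 37.1 ± 3.56 TPM (SD, n = 2). The lowest were Gldc at 7.38 ± 0.474 and Shmt1 at 7.42 ± 1.69 TPM. Slc6a5, the transporter that loads glycine into glycinergic terminals, had 12.76 TPM in replicate 2 and 10.95 TPM in replicate 1. The vesicular transporter gene Slc32a1 had 12.52 and 8.74 TPM, a 1.48-fold difference. For the small neutral amino acid transporter gene Slc7a10 the levels were 40.32 and 31.59 TPM, a 1.31-fold difference. Slc6a5, Slc32a1 and Slc7a10 were named after their values were seen. Of the 10 scaled ratios of this list 6 were above 0, and the median log2 ratio was 0.14. In this list 6 genes had intervals apart with the higher value in replicate 2 and 1, Shmt2, in replicate 1. Among the 16037 genes with a mean of at least 1 TPM these shares were 9.88% and 19.6%.

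All 22 genes of gephyrin's partners were detected, with a median of 52.9 TPM. They were led by Dynll1, a dynein light chain, at 1015 ± 54.0 TPM, the profilin genes Pfn2 at 638 ± 32.3 and Pfn1 at 588 ± 75.6, and Gabarap at 487 ± 2.18 TPM. The lowest were Iqsec3 at 10.8 ± 0.156 and Insyn1 at 6.38 ± 0.205 TPM, both of which encode proteins of the inhibitory postsynapse. Several partners, such as profilins, serve all cells. In this list 4 genes were apart toward replicate 2 and 6 toward replicate 1, where 9.88% and 19.6% of the 16037 genes were.

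All 6 GABA-A subunit genes of the list, whose receptors share gephyrin with glycine receptors, reached 1 TPM in both libraries, and their median level was 48.4 TPM. Gabra2 had 53.3 ± 5.71 and Gabra3 45.6 ± 0.948 TPM, while Gabrb2 had 15.5 ± 1.41 TPM (SD, n = 2). In this list 1 gene, Gabra2, had intervals apart with the higher value in replicate 2, and 1 gene in replicate 1. The shares among the 16037 genes were 9.88% and 19.6%. The 5 glycine receptor genes summed to 114.3 TPM in replicate 2 and 98.27 TPM in replicate 1.

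Of 9 genes of the molybdenum cofactor pathway 5 were detected. Mocs2, of the step before gephyrin, had 117 ± 4.02 TPM, Mtarc2 104 ± 4.21, Suox, which encodes the cofactor-dependent sulfite oxidase, 13.8 ± 0.721 and Mocs3 6.03 ± 0.339 TPM. The lowest were Xdh at 0.15 ± 0.0141 and Mocos at 0.14 ± 0.0424 TPM. None of the 5 detected genes had intervals apart between the pools, where 29.5% of the 16037 genes did.

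The chloride exporter gene Slc12a5, whose product makes glycine inhibitory, had 30.8 ± 1.41 TPM, and the importer gene Slc12a2 3.48 ± 0.283 TPM. Of the splicing factor genes, Ptbp2 had 128.5 ± 7.42, Nova1 54.5 ± 6.10 and Nova2 11.7 ± 0.820 TPM. Nova1 had 50.15 TPM in replicate 2 and 58.77 TPM in replicate 1, with intervals apart. The intervals of Ptbp2, at 123.28 and 133.77 TPM, were apart in the same direction, and those of Nova2 overlapped. Among the 16037 genes with a mean of at least 1 TPM, 19.6% were apart toward replicate 1.

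**Figure D5:**
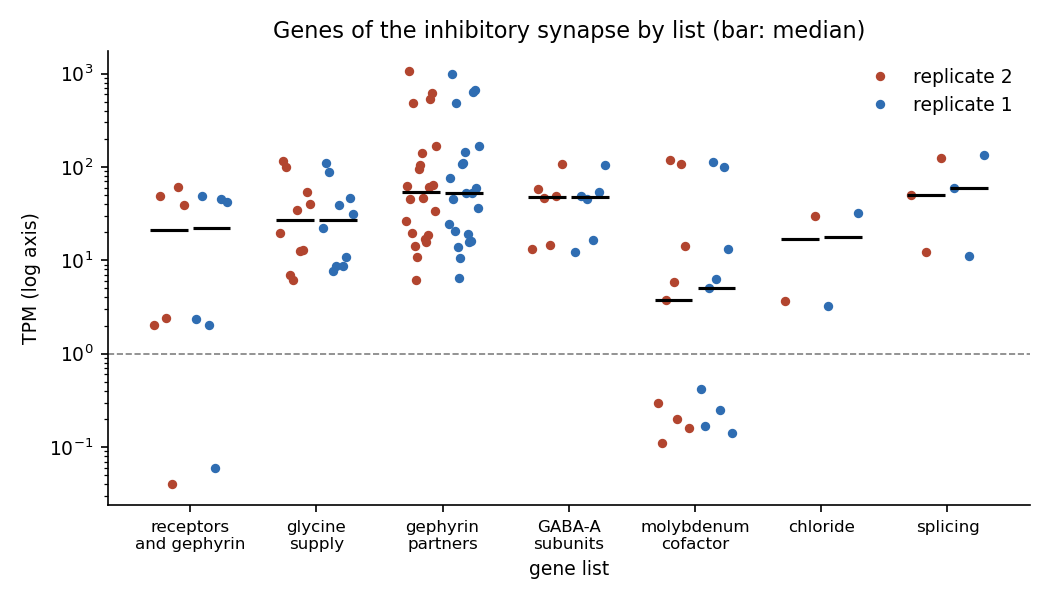
TPM on a log axis for the 6 glycine receptor and gephyrin genes and for 6 lists of related genes, by replicate, with each point a gene and each black bar a list median. The dashed line is 1 TPM. Glra4 and 4 genes of the molybdenum cofactor list lie below it in both libraries.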

How the data were processed

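Per the deposited notes, the authors quantified each replicate separately on mm10 with GENCODE M4. The sources used here name no tool. Labels give RNA longer than 200 bases, 10 ng per library and spike-ins. Per the file headers, the values are expected counts (model-assigned reads), TPM and FPKM; the interval bounds on TPM and the posterior SD are treated as scores deposited by the authors, and the interval's level is not stated. Isoform shares are the deposited percent each transcript takes of its gene.

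Names, positions and exons came from GENCODE M21 on GRCm38 (same build), joined without version; 42462 of 43346 identifiers matched. Mtarc1 and Mtarc2 were matched by synonym. Expected counts were rounded, and TMM factors came from edgeR 4.0.16 under R 4.3.3, spike-ins left out, with a prior count of 0.5 and a mean of at least 1 TPM. Features named by a bare number were left out, with 4.99e-05% of the expected counts in replicate 2 and 4e-05% of those in replicate 1. Counting intervals are exact binomial at 95% and, like all intervals here, do not cover variation between animals. DESeq2 1.42.0 gave alternative size factors. Python 3.11.15, pandas 2.3.3, SciPy 1.17.1 and Biopython 1.88 were used. The ratio step was also run on simulated counts with known changes.

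Genes named are the 6 receptor and scaffold genes and, per list, the 4 highest and 2 lowest, with every gene of short lists. Slc6a5, Slc32a1, Slc7a10 and the marker genes were named after their values were seen. All members and lists were chosen with earlier results of these data known. With 2 libraries every correlation of levels is 1 or -1, so no gene of like pattern is named. Values of some genes that enter the list counts are not reported here.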

Additional observations from a re-analysis of the deposited data

How the results depend on the processing

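Of 104 values recomputed under other settings 79 stayed within the replicate spread or counting interval, or for counts within 1.5 times. With n = 2 each replicate always lies within 1 SD of the mean. Levels, composition values and main transcript percents could therefore not move when a replicate was left out. The 6 levels in FPKM moved with the change of unit. The count of 79 is thus no measure of robustness. At a minimum of 5 TPM 3 of the 6 genes were detected, without Glra1 and Glra3. With spike-in totals the ratios of Gphn and Glra1, whose intervals include 0, became 0.40 and 0.32. Without either replicate in turn 5 were detected, and 12 to 14 pairs were apart. Requiring 2-fold in both libraries left 11 pairs. The Glra2 share of the alpha total became 91.83% with protein-coding transcripts alone and 91.69% with counts per annotated length. Genes over 2-fold higher in replicate 2 numbered 474, and 836 with spike-in totals, 164 at a mean of 5 TPM and 3045 with no filter on TPM; those higher in replicate 1 numbered 248, and 154, 72 and 2353. The main transcript of Glra3 held 90.18% of expected counts and 100% of protein-coding TPM, and that of Glrb 92.95% and 99.3%. Without each replicate in turn the ratio of Glrb to the alpha total was 0.845 to 1.15, and the percent of the 99-base form of Gphn 55.64 to 58.25. No paired analysis was possible because there is 1 group. No isoform alternative was run for Glra4, with 2 counts. Depth limits Glra1, Glra3 and Glra4.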
